A study of Mus musculus with 20 samples.

Results

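WT_20d is a clonal line of wild-type mouse induced pluripotent stem cells (iPSCs) that was differentiated as embryoid bodies and sampled once on each of days 0, 3, 5, 7 and 14. Its members are the 5 RNA-seq libraries that carry this name, of 20 libraries in all. The other 15 libraries are the same 5 days of 3 more clonal lines, the wild-type line WT_1-4 and the Nox4-/- lines N4_5-8 and N4_5-23, with 1 library for each line and day. The study made its iPSC lines from mouse embryonic fibroblasts with puromycin-selected retroviruses for Oct4, Sox2, Klf4 and c-Myc. It maintained them on growth-arrested fibroblast feeders with leukemia inhibitory factor (LIF). The paper names WT_1-4 and the Nox4-/- lines but not WT_20d, so for WT_20d these steps are taken from the study's general protocol. For differentiation the cells hung in drops without LIF for 3 days, and the aggregates were then plated on gelatin. The written protocol counts days from plating and has a different last day than the sample titles, and the days named here are those of the titles. Whether day 0 is before the drops or after them is not settled by these sources, so the day 0 that every fold is set against may be either. A line is 1 clone, so clone and genotype cannot be told apart, and WT_20d is set against the other lines as a line and not as a genotype.

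An embryoid body is an aggregate of pluripotent cells that, once LIF is withdrawn, leaves the pluripotent state and forms cells of the 3 germ layers side by side. Early in this process cells pass through a state like the primitive streak, the part of the embryo in which mesoderm and definitive endoderm arise. The outer cells of an embryoid body often form extraembryonic endoderm, of which the visceral kind secretes Afp and apolipoproteins and the parietal kind lays down a thick basement membrane of type IV collagen, laminin, nidogen and Sparc. Mesoderm gives beating cardiac cells, smooth muscle, vessels, blood and fibroblasts, which fill the space between tissues with collagens I and III.

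The values are estimated read counts per gene, scaled to the library total with TMM factors as CPM, the usual unit of depth-corrected counts. The 5 libraries of WT_20d held 20968379 to 24649395 counts and the 20 libraries held 20294935 to 27707994. In WT_20d, 3 counts, the most that a count of 0 allows, corresponded to 0.121 to 0.157 CPM. With 1 library a day, only counting error is known within WT_20d. The tests therefore took the spread from the day-by-line residual of the 3 other lines, with 8 residual degrees of freedom, and assumed that WT_20d varied like them. That residual also holds any true difference in course between those lines, genotype included. In what follows "rose" and "fell" mean a false discovery rate (FDR) under 0.01 for day 14 against day 0 in edgeR's quasi-likelihood test, adjusted over all 20524 genes tested by Benjamini-Hochberg, unless another pair of days is named. Every adjusted p below comes from that test unless another tool is named, and every fold is a ratio of CPM, where a gene at 0 on 1 of the days is given as at least the fold over 3 counts. Each SE is the size of the log2 change divided by the square root of the test's F statistic. It is thus an approximation, and it is not reliable for genes near 0 in the libraries compared. The same test of the 4 day effects together, called the course, passed for 1747 genes (8.51% of those tested). All tissues were measured in bulk, so fewer cells of a type and less RNA per cell cannot be told apart.

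Nanog, a transcription factor of naive pluripotency (ENSMUSG00000012396, chr6:122707489-122714633, GRCm38, plus strand), had 377, 157, 43.5, 29 and 8.35 CPM on days 0, 3, 5, 7 and 14. Its level was lower on every later day than on the day before. Day 14 was 45.1-fold lower than day 0, and Nanog fell (log2 change -5.49 ± 0.71 (SE), adjusted p = 0.000139). Afp, alpha-fetoprotein, the main serum protein of visceral endoderm (ENSMUSG00000054932, chr5:90490737-90508907, plus strand), had 1.13, 30.7, 96.9, 259.9 and 663 CPM on the same days. It was higher on every later day, day 14 was 587-fold higher than day 0, and Afp rose (log2 change 9.19 ± 0.90 (SE), adjusted p = 4.43e-05). The Afp call was lost in DESeq2, where the adjusted p was 0.0574. Col4a1, a chain of type IV collagen (ENSMUSG00000031502, chr8:11198423-11312826, minus strand), had 373, 770.1, 2111, 3505 and 26031 CPM. It too was higher on every later day, and it rose 69.7-fold (log2 change 6.12 ± 0.66 (SE), adjusted p = 4.18e-05). Acta2, smooth muscle actin (ENSMUSG00000035783, chr19:34241090-34255590, minus strand), had 1.17, 152, 415, 739.8 and 408 CPM. It was highest on day 7, still 349-fold higher on day 14 than on day 0, and it rose (log2 change 8.44 ± 1.05 (SE), adjusted p = 0.000107). The 95% Wilson intervals, which cover counting error only, were 369 to 384 CPM on day 0 and 7.15 to 9.75 on day 14 for Nanog, 0.782 to 1.63 and 652 to 675 for Afp, and 0.815 to 1.68 and 399 to 417 for Acta2, so the differences between these days were far wider than counting error.

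**Figure D1:**
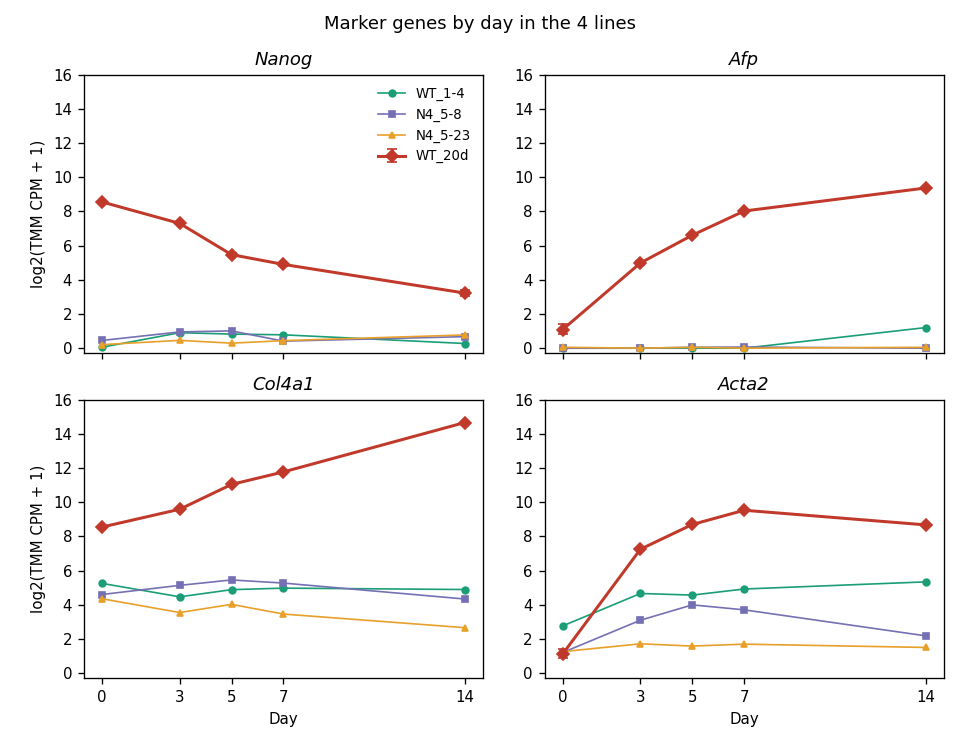
Levels of Nanog, Afp, Col4a1 and Acta2 as log2(TMM CPM + 1) against day, with WT_20d in red diamonds and its 95% Wilson intervals of counting error (mostly narrower than the symbol) and the 3 other lines in their own colors. Nanog starts at 377 CPM in WT_20d and lies at or under 1.02 CPM in all 15 libraries of the other lines, and Col4a1 ends at 26031 CPM against at most 373 CPM on day 0 of the same line.

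Nanog also set WT_20d apart from the other lines on day 0. It had 0.0388, 0.368 and 0.155 CPM on day 0 of WT_1-4, N4_5-8 and N4_5-23, so this defining marker of the labelled cell type was near 0 there. Pou5f1 (Oct4) had 5887, 3152 and 4574 CPM in the same 3 libraries and 1118 CPM in WT_20d, and reads of a retroviral copy cannot be told apart from those of the gene itself. With 1 line against 3, an exact permutation test cannot go below 0.25, so such differences in level are given as descriptions. Differences in the change over time were tested with the lines' own levels taken out. By lines they too are 1 against 3, so the same limit of 0.25 holds for them. Their adjusted p values rest on the residual between libraries of the other lines and not on lines as replicates. Nox4 had 2.58, 6.8, 7.88, 8.69 and 2.92 CPM in WT_20d, 0.272, 0.873, 0.772, 0.455 and 0.157 CPM in WT_1-4 and at most 0.0849 CPM in the 10 libraries of the Nox4-/- lines.

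The promoters of genes that moved together or that mark the start of the course are shown from RefSeq (GRCm38.p6), each as 250 bases before and 50 after an annotated start, 5′ to 3′ on the gene's own strand. Col4a1 (chr8:11312777-11313076, minus strand) and Col4a2 (chr8:11312555-11312854, plus strand) are transcribed away from each other out of a common stretch, and their windows share 78 bases. Capitals mark CCAAT and GGGCGG on either strand, which 37.4% and 35.7% of all 32851 windows hold, with no overlap between the motifs in these windows.
Col4a1: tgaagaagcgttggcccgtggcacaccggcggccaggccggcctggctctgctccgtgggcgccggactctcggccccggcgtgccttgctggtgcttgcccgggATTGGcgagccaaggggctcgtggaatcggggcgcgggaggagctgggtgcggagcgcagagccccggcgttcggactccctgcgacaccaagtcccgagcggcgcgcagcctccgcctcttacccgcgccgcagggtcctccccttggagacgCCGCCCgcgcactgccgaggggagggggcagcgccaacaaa
Col4a2: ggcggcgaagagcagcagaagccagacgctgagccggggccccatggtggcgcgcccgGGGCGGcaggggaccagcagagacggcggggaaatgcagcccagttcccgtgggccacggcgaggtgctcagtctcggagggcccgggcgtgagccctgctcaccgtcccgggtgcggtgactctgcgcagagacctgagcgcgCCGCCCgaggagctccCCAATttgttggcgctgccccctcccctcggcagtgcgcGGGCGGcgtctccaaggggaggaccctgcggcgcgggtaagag
Afp (chr5:90490464-90490763, plus strand) is shown for the endoderm side, with TATAAA (13.6% of all windows) and CCAAT in capitals, and Nanog (chr6:122707239-122707538, plus strand) for the pluripotent side, with the octamer core TTTGCAT (4.63% of all windows) in capitals.
Afp: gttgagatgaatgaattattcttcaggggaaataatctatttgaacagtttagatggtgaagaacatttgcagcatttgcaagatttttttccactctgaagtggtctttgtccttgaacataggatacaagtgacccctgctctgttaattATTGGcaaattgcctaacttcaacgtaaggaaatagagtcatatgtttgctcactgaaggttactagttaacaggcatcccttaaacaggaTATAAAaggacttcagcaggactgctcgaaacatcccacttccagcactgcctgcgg
Nanog: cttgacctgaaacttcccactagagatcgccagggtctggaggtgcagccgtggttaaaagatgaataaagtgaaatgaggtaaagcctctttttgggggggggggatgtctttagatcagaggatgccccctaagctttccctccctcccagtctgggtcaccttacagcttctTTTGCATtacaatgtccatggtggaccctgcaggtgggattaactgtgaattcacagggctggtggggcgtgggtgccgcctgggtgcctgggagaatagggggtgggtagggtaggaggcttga
The 4 motifs were searched on both strands, and a match is a description of the letters only.

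The whole course was large. Between day 0 and day 14, 1734 genes rose (8.45% of those tested) and 1246 fell (6.07%). The counts of rises and falls in the gene lists below are to be read beside these shares. Without N4_5-23 the total of 2980 was 1302. On the log2(CPM + 1) scale the median change of all genes tested was 0.0, and 2055 genes (10.0%) differed by 4-fold or more in either direction, beside 1571 in WT_1-4, 1059 in N4_5-8 and 1102 in N4_5-23. By step, the counts past 4-fold were largest for the first and the last step, and the steps differ in length. A gene that changed gradually can be past 4-fold over the whole course and in none of the steps. The counts past 4-fold were 353 (1.72%) from day 0 to 3, 121 (0.59%) from day 3 to 5, 39 (0.19%) from day 5 to 7 and 397 (1.93%) from day 7 to 14. In the other lines they ran from 73 to 82, 4 to 25, 6 to 71 and 48 to 149 over the same steps. A fold count is a description with no test, and its size depends on the pseudocount.

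**Figure D2:**
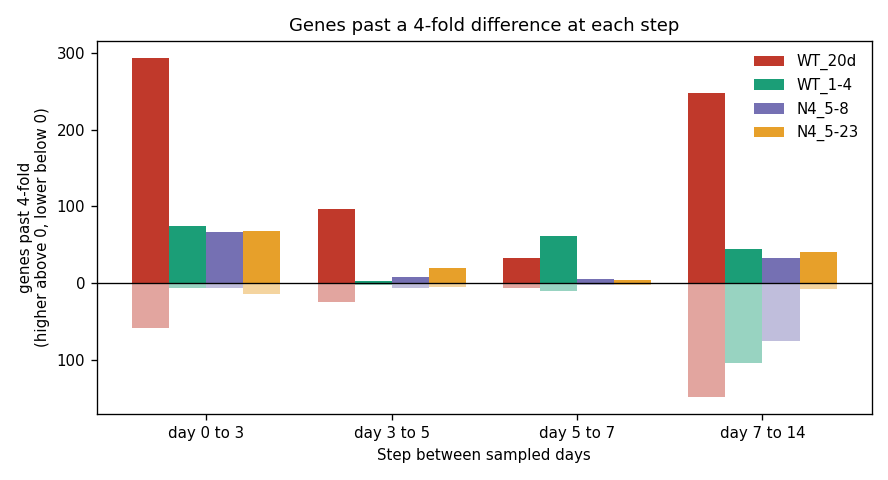
Number of genes past a 4-fold difference on log2(TMM CPM + 1) at each step between sampled days in the 4 lines, with genes that were higher on the later day above 0 and genes that were lower below 0. WT_20d has 294 higher and 59 lower genes from day 0 to 3, and 248 higher and 149 lower genes from day 7 to 14, more than any other line at these steps, and fewer than WT_1-4 from day 5 to 7.

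The steps were also tested. From day 0 to 3, 128 genes (0.624%) passed, of which 113 were higher on day 3, and 99 of those were also called higher on day 14. From day 3 to 5, 1 gene (0.00487%) passed, which was Tek, an angiopoietin receptor. From day 5 to 7 the number was 0 (0.0%) in edgeR, with 571 genes at an unadjusted p under 0.05 and 14 and 8 calls in DESeq2 and limma-voom. From day 7 to 14, 32 genes (0.156%) passed, 23 of them higher. These step counts lean on the other lines: without N4_5-8 they were 26, 0, 0 and 0, and without N4_5-23 they were 12, 0, 0 and 0. Of the 1734 genes that rose, 448 had reached 50% of their log2 change by day 3, a further 695 by day 5, 213 by day 7 and 378 only on day 14. Of the 1246 that fell, 228, 728, 104 and 186 did so by the same days. Day 14 was the highest of the 5 days for 1415 of the genes that rose and the lowest for 1177 of those that fell.

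Among the 10 protein-coding genes with the largest rises on the log2(CPM + 1) scale were 3 genes of connective tissue matrix, Col3a1, Col1a1 and Postn, which are described with their group. Tinagl1, a basement membrane glycoprotein, had 4.76, 49.3, 138, 156 and 1837 CPM and was 386-fold higher on day 14 than on day 0. Its largest gain in CPM came after day 7 (step log2 change 3.56 ± 0.50 (SE), adjusted p = 0.00751), but day 7 was already 32.7 times day 0. Dlk1, an imprinted membrane ligand of the Notch family, had 1.9, 16.5, 322, 622 and 744 CPM. Gkn2, a secreted protein named after the stomach, had 0.404, 0.824, 2.56, 8.48 and 220.4 CPM and was listed at 0 in all 15 other libraries. Ctsj, a placental cathepsin that belongs to a family of near-identical copies, had 0, 0, 0, 0.0428 and 192 CPM. Gkn2 and Ctsj thus had by far their highest level in the day 14 library of WT_20d. The 10 largest falls held 3 genes of Nodal signaling: the Nodal inhibitor Lefty1 with 402, 43.5, 11.6, 13.4 and 1.83 CPM, its neighbor Lefty2 with 186, 47.6, 14, 9.42 and 0.626 CPM, and the co-receptor Tdgf1 with 658, 232, 29.9, 47.9 and 8.92 CPM. All 3 were already lower on day 3 and their day 14 levels were 0.00454, 0.00337 and 0.0136 of those on day 0. Lefty1 and Lefty2 are close copies, and reads may be split between them. Trh, a prohormone, had 264, 248, 59.1, 39.4 and 4.12 CPM, and it was the only 1 of the 10 with about the same level on day 3 as on day 0. The other falls were Pou5f1 and Nanog, the zinc finger gene Zic5 (160.3, 41.6, 13.1, 9.42 and 3.24 CPM), the PDZ protein gene Pdzd4 (200.3, 41.5, 13.4, 13.3 and 4.02 CPM) and Zfp987 and Zfp988, 2 zinc finger genes with many near copies (57, 11.5, 1.93, 3.08 and 0.157 CPM and 81.6, 18.9, 4.36, 4.67 and 1.2 CPM).

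**Figure D3:**
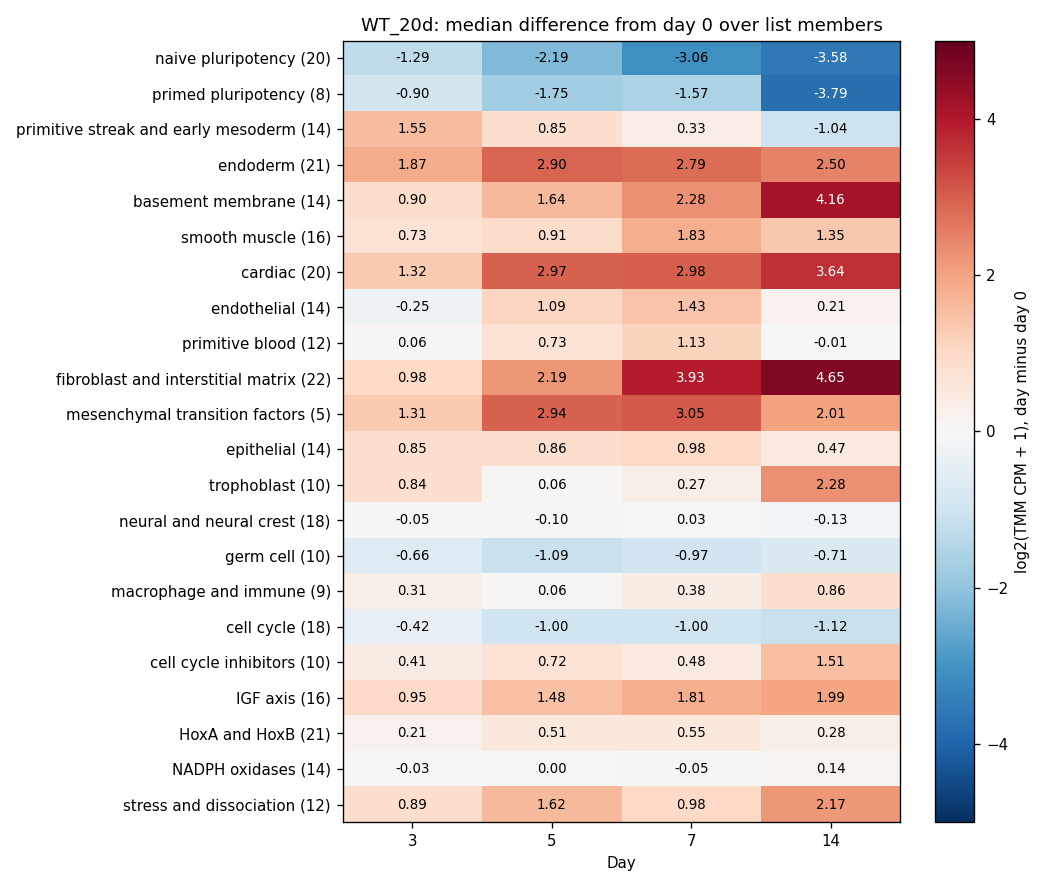
Median over the members of each gene list (number of members in parentheses) of the difference from day 0 on log2(TMM CPM + 1), for days 3, 5, 7 and 14 of WT_20d. The streak list is highest on day 3 (1.55) and below day 0 on day 14 (-1.04), endoderm levels off from day 5 (2.90, 2.79 and 2.50), and the basement membrane and interstitial matrix lists end highest (4.16 and 4.65).

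Genes of naive pluripotency were lower from day 3 on. Of 20 naive pluripotency genes, all tested, 9 fell and none rose, and the list's median log2 difference from day 0 was -1.29, -2.19, -3.06 and -3.58 on days 3, 5, 7 and 14, beside 0.0 for all genes tested. Beside Nanog and Tdgf1, the genes that fell were Dppa5a, an RNA-binding protein of pluripotent cells (886, 236, 64.6, 41.9 and 24.3 CPM), the chromatin factor Utf1 (306, 70.6, 35.8, 19.9 and 10.5 CPM), the growth factor Fgf4 (92, 19.9, 7.33, 4.28 and 2.24 CPM), Esrrb, an orphan nuclear receptor that acts with Nanog (121, 48, 19.6, 9.17 and 4.75 CPM), Dppa4 (119, 33.4, 11.5, 8.65 and 3.34 CPM), Dppa2 (64.8, 12.9, 3.19, 4.28 and 1.36 CPM) and the TGF-beta family ligand Gdf3 (40.8, 11.3, 2.85, 1.76 and 0.574 CPM). Each of these 7 genes was lower on day 3 than on day 0, and Fgf4 passed the day 0 to 3 step as well (adjusted p = 0.00609). Their day 14 levels were from 0.0141 (Gdf3) to 0.0392 (Esrrb) of the day 0 levels. The list did not move as 1 block. Lin28a, a blocker of let-7 processing, had 461, 464, 589, 402 and 226 CPM, Sall4 had 156, 154, 186, 123 and 127 CPM and Tfcp2l1 had 69.4, 77.1, 95.3, 103 and 104 CPM, and none of the 3 passed in WT_20d. For 6 of the 20 genes the change was below that of the other lines (3.83% of all genes were), and without N4_5-23 for 3. Tbx3 had 23.4, 44.9, 150.1, 102 and 19.6 CPM, with its highest level on day 5, and Klf5, which also acts in trophoblast and endoderm, had 62.7, 57.7, 71.3, 52.6 and 176 CPM (adjusted p = 0.049). Summed over the list the level went from 3563 to 734.8 CPM, and over the other lines it ran from 106.8 to 363.7 CPM.

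Genes of the primed state were nearer to their day 0 level on day 7 than the naive ones. Of 8 genes, 7 fell, and the list's median was -0.90, -1.75, -1.57 and -3.79 on the 4 later days. Fgf5, the usual marker of primed epiblast, had 93.5, 67.2, 19.6, 28.6 and 1.62 CPM, and Otx2, a homeobox factor of the primed state and the forebrain, had 188, 167, 71.7, 67.2 and 15.3 CPM. Both had their largest log2 drop in the last interval. Fgf5 was 57.8-fold lower on day 14 than on day 0 (adjusted p = 0.00109) and Otx2 12.3-fold lower (adjusted p = 0.00015). Dnmt3b, a de novo DNA methyltransferase, had 714, 444, 358, 269.9 and 42.5 CPM, and its partner Dnmt3a had 410.0, 107, 94.1, 97.1 and 62.8 CPM. Dnmt3a passed the day 0 to 3 step (log2 change -1.94 ± 0.33 (SE), adjusted p = 0.00862), and for Dnmt3b that step had an adjusted p of 0.588. Whether the steps of these genes differed was not tested. Sox3, with 13.3, 5.56, 5.45, 9.34 and 1.15 CPM, was the member that missed the threshold (adjusted p = 0.0102).

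Of the 4 reprogramming factors, whose retroviral and own transcripts are counted together, Pou5f1 and Sox2 fell and Klf4 rose. Pou5f1 had 1118, 369, 109.9, 78.6 and 21.1 CPM and was 52.9-fold lower on day 14 than on day 0 (log2 change -5.72 ± 0.56 (SE), adjusted p = 2.18e-05). Sox2 had 192, 52.6, 30.5, 15.5 and 6.94 CPM (adjusted p = 0.00741). Klf4, which is also expressed in epithelia and vessel walls, had 26, 17, 37.8, 45.8 and 179 CPM (adjusted p = 0.000199), with its largest gain in CPM between days 7 and 14. Myc had 50.1, 32.6, 35.4, 25 and 16.3 CPM (adjusted p = 0.0109). Without N4_5-8, and likewise without N4_5-23, 1 of the 4 fell. In the other lines Pou5f1 lay at 1346 to 5887 CPM over all days, Klf4 at 375 to 862 CPM and Myc at 269.9 to 1367 CPM, levels that WT_20d had for none of the 3 on any day. The change of Pou5f1 from day 0 to 14 was below that of the other lines (log2 difference in change -4.71 ± 0.58 (SE), adjusted p = 0.000185) and that of Klf4 above it (3.37 ± 0.43 (SE), adjusted p = 0.000221).

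Primitive streak and early mesoderm genes had their highest level on day 3. This held for 10 of the 14 genes of the list, whose summed level was 228.3, 410.7, 178.5, 173.9 and 32.57 CPM. T (brachyury), the defining factor of the streak, had 3.07, 41.9, 6.12, 3.17 and 0.104 CPM, with day 3 13.7-fold above day 0. Mixl1, a homeobox factor of mesendoderm, had 1.45, 19.6, 3.56, 6.47 and 0.209 CPM, Eomes, a T-box factor of the streak, 34.3, 115, 28.2, 37.6 and 4.54 CPM, and Mesp1, the earliest marker of cardiac mesoderm, 0.0807, 5.19, 0.503, 0.557 and 0 CPM. Lhx1 had 19.5, 77.7, 39.8, 31.4 and 4.33 CPM and the growth factor gene Fgf8 14.1, 38.6, 9.35, 10.8 and 1.62 CPM. The day 3 peak passed the step test only for Evx1, a homeobox factor of the posterior streak (0.363, 18.5, 15, 11.8 and 1.57 CPM, adjusted p = 0.00606), while the course passed for 7 of the 14, T included (adjusted p = 0.000441). By day 14 T, Eomes, Gsc, Lhx1 and Nodal had fallen below day 0 and Foxf1, a forkhead factor of lateral mesoderm, had risen (0.0807, 3.79, 16.7, 21.9 and 5.22 CPM). Without N4_5-8 there were 0 rises and 1 fall, and without N4_5-23 there were 2 falls. Nodal, the ligand that patterns the streak, had 143, 57.4, 36, 31.7 and 7.36 CPM, with its highest level on day 0. Presomitic markers were scarce, with Msgn1 detected in the day 3 library alone (0.701 CPM) and Tbx6 at most 3.55 CPM.

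Several genes named by the size of a peak, a rule that asked for no test, belong to the same days. Of those below, the course passed for Cfc1, Aplnr, Msx1, Sprr2a2 and Cbln1, and it did not for Sp5, Tph1, Pyy and Amer3 (adjusted p = 0.0289, 0.185, 0.0137 and 0.0214). Cfc1, a Nodal co-receptor of the Cripto family, had 2.26, 69, 93, 50.3 and 3.08 CPM and was named for days 3, 5 and 7. Aplnr, the apelin receptor of early mesoderm, had 0.525, 22.5, 16.3, 18.3 and 1.04 CPM, and Sp5, a target of Wnt signaling, had 0.605, 16.6, 5.36, 5.01 and 0.522 CPM. These 3 genes lay between 0 and 0.493 CPM in all libraries of the other lines. Msx1, a homeobox target of BMP signaling, had 1.13, 30.8, 42.8, 25.2 and 2.3 CPM, Tph1, an enzyme of serotonin synthesis, had 0.969, 27, 12.5, 4.24 and 1.1 CPM, and Sprr2a2, from a family of cornified envelope genes with close copies, had 0.444, 110.2, 15.6, 12.4 and 2.98 CPM. On day 5 the gut hormone gene Pyy was named with 0.121, 2.97, 16.3, 0.642 and 0.104 CPM and Amer3, a gene of the Wnt pathway, with 0.202, 5.56, 16.5, 4.67 and 0.313 CPM. All of these were far lower again on day 14. Cbln1, a secreted synaptic protein, had 0.847, 4.41, 8.47, 25.7 and 1.41 CPM.

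Endoderm genes were higher from day 3 on. Of 21 genes, 20 were tested, 9 rose and none fell, and 10 of the 21 had their highest level on day 7. The course, which also counts the middle days, passed for 8. The 9 rises became 6 in DESeq2, 7 without N4_5-23, 12 without WT_1-4 and 3 with no line term. In limma-voom there were 14 rises and 1 fall. The list's median difference from day 0 was 1.87, 2.90, 2.79 and 2.50. Apart from Afp the risers were mostly secreted proteins of visceral endoderm and liver. Ttr, a thyroid hormone carrier, had 8.51, 50.3, 139, 268 and 94.5 CPM, and Rbp4, the retinol carrier, had 4.92, 31.3, 181, 507 and 410.1 CPM (adjusted p = 2.17e-05). Apob, the core protein of lipoproteins, had 89.7, 356, 1328, 2364 and 511 CPM, and Apom had 0.807, 5.73, 49, 111 and 31.5 CPM. Ttr, Apob and Apom were highest on day 7 and lower again on day 14, while Afp went on to day 14. Apoa1 had 4.04, 83.5, 68.4, 100.3 and 65.8 CPM and Apoa2 0, 2.27, 7.21, 8.31 and 16.1 CPM, and both, with Afp, passed the day 0 to 3 step (adjusted p = 0.00865, 0.00246 and 0.00928). Of the transcription factors, Sox17 had 8.19, 71.4, 112, 139 and 125 CPM (adjusted p = 0.0017) and Gata6 13.2, 29.9, 56, 59.4 and 139.7 CPM (adjusted p = 0.00256). Gata4, with 83.2, 301, 629.7, 581 and 639.7 CPM, did not pass (adjusted p = 0.0782), nor did Foxa2 (12.9, 49.8, 92.4, 82.9 and 66.2 CPM, adjusted p = 0.0379) or Hnf4a, the liver and visceral endoderm factor (12.8, 60.7, 148, 132 and 39 CPM, adjusted p = 0.0774). Sox7, found in parietal endoderm and vessels, had 17.2, 12.9, 17.9, 30.6 and 116 CPM, with its highest level on day 14 (adjusted p = 0.0312). Cubn, an uptake receptor of visceral endoderm, was already at 507 CPM on day 0, with 507, 407, 263, 568 and 208 CPM over the course. Alb was at most 0.209 CPM. The whole list summed to 1081 to 6690 CPM in WT_20d and 26.46 to 147.3 CPM in the other lines, where 4 of the 21 genes had at most 3 counts in every library.

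Of the lists compared, basement membrane genes had the largest gain in summed level. The 14 genes took 0.397, 0.708, 1.37, 1.82 and 8.18% of all counts on the 5 days, and Col4a1 and Col4a2 alone took 3.96% on day 14. In the other lines the list's summed level lay between 1517 and 6438 CPM, while in WT_20d it went from 3945 CPM on day 0 to 89555 CPM on day 14. Of the 14 genes, 8 rose and none fell, and 11 were highest on day 14. Col4a2, the partner chain that shares a promoter region with Col4a1, had 193, 447, 1313, 2120.2 and 17321 CPM, and the ratio of day 14 to day 0 was 89.6 for Col4a2 and 69.7 for Col4a1. The 3 chains of laminin-111 moved with them. Lama1 had 196, 383, 723, 1413 and 8562 CPM, Lamb1 279.7, 624, 1252, 1749.9 and 8355 CPM and Lamc1 472, 841, 1372, 2062 and 9341 CPM, with adjusted p = 0.000131, 2.18e-05 and 0.00049. Nid1, nidogen, which links laminin to type IV collagen, had 43.6, 105, 236, 411 and 3583 CPM and was 82.1-fold higher on day 14 (adjusted p = 2.18e-05). Sparc, a collagen-binding protein that is abundant in parietal endoderm, had 425, 1031, 2207, 3025 and 11939 CPM. Thbd, thrombomodulin, which is also made by parietal endoderm, had 0.242, 0.618, 0.754, 1.54 and 14.4 CPM and passed the last step by itself (log2 change 3.21 ± 0.48 (SE), adjusted p = 0.00935). The other members did not pass. The perlecan gene Hspg2 had 349, 604, 849, 666 and 1536 CPM, Agrn had 303, 620.1, 1014, 763 and 591 CPM and Lama5 had 469, 631, 990.1, 634 and 596 CPM. Col18a1 had 454, 320.5, 479.6, 321 and 154 CPM (adjusted p = 0.0813) and had a lower value on day 14 than on day 0. The rises stood at 8 or 9 without any 1 of the other lines, and at 1 with no line term.

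The change of 7 of these 14 genes was above that of the other lines (4.76% of all genes were). In this test the difference in the day 0 to 14 log2 change was 6.96 ± 0.72 (SE) for Col4a1 (adjusted p = 5.96e-05), 8.11 ± 1.70 (SE) for Col4a2 (adjusted p = 0.00518), 7.44 ± 0.99 (SE) for Lama1 (adjusted p = 0.00032) and 7.62 ± 0.69 (SE) for Nid1 (adjusted p = 2.27e-05). In the other lines the list's median change ran from -0.31 to 0.46. With no line term there were 0 such differences. With WT_1-4 alone as the comparison there were 6 above and 1 below, and the call for Col4a2 was lost. Of the 8 genes that rose, Sparc had no such call. Its difference in change was 1.31 ± 0.71 (SE) (adjusted p = 0.236), with 39 to 2201 CPM in the other lines. The share of mitochondrially encoded genes in all counts of WT_20d was 1.66, 1.22, 0.871, 0.933 and 0.498% on the 5 days, and the share of the 10 highest genes went from 5.46 to 10.1%. With upper quartile factors, median-of-ratios factors or no factors at all, the basement membrane median on day 14 was positive.

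**Figure D4:**
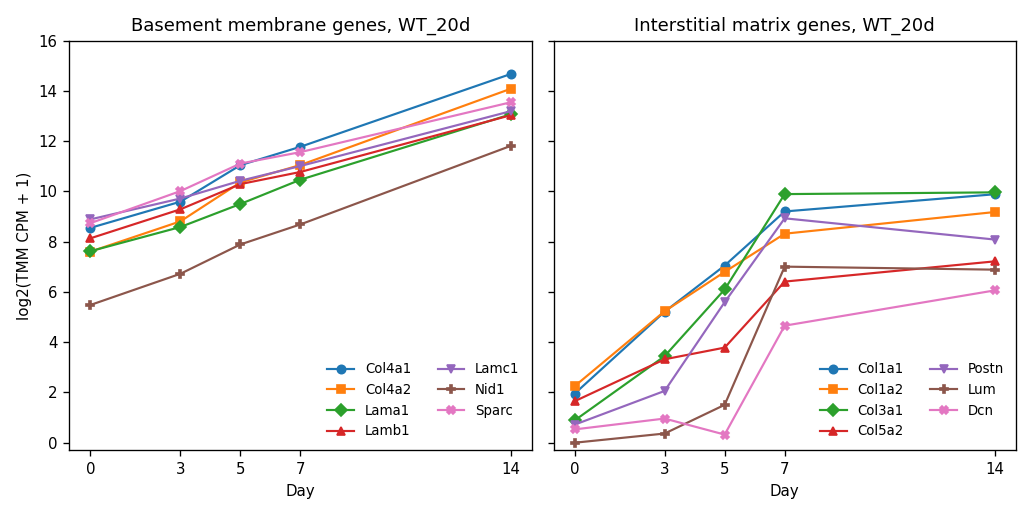
Levels of 7 basement membrane genes (left) and 7 interstitial matrix genes (right) in WT_20d as log2(TMM CPM + 1) against day, 1 line for each gene. The basement membrane genes start between 43.6 and 472 CPM and are highest on day 14, and the interstitial genes start at or under 3.75 CPM, and the largest gaps of Col3a1, Lum and Dcn lie between days 5 and 7.

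Interstitial matrix and fibroblast genes were also higher at the end. Of 22 genes, 14 rose (2 with no line term) and none fell, and 10 were highest on day 7 and 11 on day 14. The median difference from day 0 was 0.98, 2.19, 3.93 and 4.65. Col3a1, the chain of type III collagen, had 0.847, 9.89, 67.6, 949 and 996 CPM, the largest rise of any protein-coding gene on the log2(CPM + 1) scale (adjusted p = 0.000348). Col1a1 had 2.87, 36.1, 131, 588 and 946 CPM and Col1a2, the other chain of type I collagen, 3.75, 36.6, 110.1, 318 and 579 CPM. All 3 chains were higher on every later day, with the largest gain in CPM between days 5 and 7 for Col3a1 and Col1a1. Postn, a matricellular protein of embryonic connective tissue and heart valves, had 0.646, 3.17, 47.2, 486 and 270.4 CPM, and the proteoglycan genes Lum and Dcn had 0, 0.288, 1.84, 128 and 117 CPM and 0.444, 0.948, 0.251, 24.2 and 65.8 CPM. Lum was at least 969-fold higher on day 14 (adjusted p = 4.23e-05). Pdgfra, a receptor of mesoderm and primitive endoderm, had 10.9, 41.5, 83.6, 164 and 296 CPM, and Lox, which crosslinks collagen, 0.242, 1.52, 2.01, 5.1 and 30.3 CPM. Vim, the intermediate filament of mesenchymal cells, was high from day 3 on. It had 14.5, 232, 424, 449.7 and 564 CPM, and it passed the day 0 to 3 step (log2 change 4.00 ± 0.27 (SE), adjusted p = 1.47e-05). Fn1, which pluripotent cultures also make, had 589.7, 1619.8, 2168, 2464 and 2345 CPM. The fibroblast factors Twist1 (2.5, 5.73, 8.97, 14 and 4.91 CPM), Twist2 (0.525, 1.81, 6.37, 9.68 and 3.18 CPM) and Prrx1 (0.565, 0.783, 1.34, 4.03 and 3.91 CPM) did not pass, and neither did Thy1 (13.9, 10.2, 5.83, 2.01 and 2.56 CPM, adjusted p = 0.0607). In the day 0 library of a culture kept on fibroblast feeders, Col1a1, Col1a2 and Col3a1 were at 2.87, 3.75 and 0.847 CPM.

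For 14 of these 22 genes the change was above that of the other lines (4.76% of all genes were). In those lines the list's median change ran from -0.29 to -0.03. The differences in log2 change were 12.12 ± 1.65 (SE) for Col3a1 (adjusted p = 0.000366), 10.09 ± 1.68 (SE) for Col1a1 (adjusted p = 0.00122), 10.09 ± 0.93 (SE) for Postn (adjusted p = 2.55e-05) and 4.84 ± 0.30 (SE) for Vim (adjusted p = 5.29e-06). For Vim the levels met at the end: WT_20d went from 14.5 to 564 CPM, and the other lines lay at 447 to 951 CPM throughout. For Col3a1 they did not, since the other lines lay at 0.0896 to 24.5 CPM. The 14 became 11 to 12 without any 1 of the other lines, 10 with WT_1-4 alone as the comparison and 1 with no line term.

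Factors of epithelial to mesenchymal transition rose in part, and no epithelial gene was called lower in the main fit. In DESeq2, in limma-voom and without WT_1-4, 1 epithelial gene was called lower. Of 5 transition factors 3 rose. Snai1, which represses Cdh1, had 3.31, 9.68, 19.1, 14.5 and 108 CPM (adjusted p = 1.93e-05) and passed the last step (adjusted p = 0.00862). Snai2 had 0.242, 0.371, 11.1, 14.9 and 4.02 CPM, Zeb1 7.63, 9.6, 23.1, 36.4 and 17.4 CPM, Zeb2 1.82, 11.1, 20.5, 22.3 and 12.6 CPM and the mesenchymal cadherin Cdh2 6.42, 60.3, 76.2, 84.8 and 16.3 CPM. Cdh2 passed the step from day 0 to 3 (adjusted p = 0.00573) and was back at 16.3 CPM on day 14, and 4 of the 5 were highest on day 7. Without N4_5-23 the 3 rises became 1. Of 14 epithelial genes, 3 rose and none fell. These were the simple keratins Krt8 (57, 1031, 1043, 1071 and 1143 CPM, adjusted p = 3.31e-05), Krt18 (74.8, 771, 947, 819.8 and 977 CPM) and Krt19 (6.01, 109, 96, 146 and 255 CPM). Krt8 had 18.1 times its day 0 level on day 3 and hardly moved after that. Cdh1, E-cadherin, had 452, 471, 383, 363 and 210.4 CPM (adjusted p = 0.138), and Epcam had 118, 122, 101, 84.9 and 57.8 CPM (adjusted p = 0.0892). In the other lines the same list had a median change of 1.05 to 3.6, and for 7 of the 14 genes the change of WT_20d was below theirs (3.83% of all genes). The difference was -4.60 ± 0.53 (SE) for Epcam (adjusted p = 0.000124) and -5.67 ± 0.70 (SE) for the polarity gene Crb3 (adjusted p = 0.000192). Epcam had 4.54, 6.29 and 5.8 CPM on day 0 of the other lines and 111, 73.5 and 37 CPM on day 14. WT_20d was thus above all 3 lines on day 0 and, at 57.8 CPM, within their range on day 14. Without N4_5-23 the number was 4 in place of 7.

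Heart muscle genes were low on day 0 and many rose. Of 20 cardiac genes 11 rose and none fell, with a summed level of 13.96, 90.21, 490.8, 490.0 and 644.2 CPM. Hand1 and Hand2 are bHLH regulators of early heart and, for Hand1, of yolk sac and trophoblast. Hand1 had 0.161, 7.46, 132, 87.5 and 45.2 CPM and Hand2 0, 5.19, 28.6, 33.2 and 13.7 CPM, both with the step from day 0 to 3 passed (adjusted p = 0.00862 and 0.00268). Sarcomere genes rose as well. Actc1, cardiac actin, had 0.363, 13, 42.9, 60.1 and 41.2 CPM, the troponin gene Tnnc1 0.323, 9.68, 35.6, 26.1 and 31.1 CPM, and both passed the first step as well (adjusted p = 0.00981 and 0.00218). Tnnt2 had 0.404, 1.44, 18.9, 22.7 and 20.2 CPM, Myh7, the slow myosin heavy chain, 0.565, 6.88, 69.9, 92.7 and 117 CPM, and Myl3 0.928, 7.95, 14.8, 16.1 and 166 CPM. Myh7 was 207-fold higher on day 14 than on day 0 (adjusted p = 0.000425), while Myl3 had its largest gain between days 7 and 14. The other risers were Myl4, Tnni1, Ryr2 and Mef2c. Nkx2-5, a core cardiac factor, had 0.0404, 0.701, 6.29, 2.14 and 1.25 CPM and did not pass (adjusted p = 0.048), and Isl1, a marker of second heart field progenitors, had 0.807, 5.44, 9.47, 6.38 and 0.835 CPM. Markers of working chambers were low, with Myl2 at most 3.04 CPM, Nppa at most 2.61 and Pln at most 1.77. For 5 of the 20 genes the change was above that of the other lines (4.76% of all genes were), and without N4_5-8 or without N4_5-23 for 3. The calls for Hand1 (adjusted p = 0.00225) and Tnnc1 (adjusted p = 0.000265) were among the 5.

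In the smooth muscle list 5 of 16 genes rose. Besides Acta2 these were Tagln, an actin-binding protein (20.0, 205, 205, 249 and 164 CPM), the tropomyosin gene Tpm1 (179, 902, 947, 733 and 580.5 CPM), Cald1 (74.5, 272, 305, 393 and 446 CPM) and Actg2, the enteric actin (0, 0.33, 0.419, 6.3 and 18.1 CPM). Tpm1 and Acta2 passed the first step (adjusted p = 0.000369 and 0.00293). The late markers of contractile smooth muscle were low, with Myh11 at most 0.824 CPM. Cnn1, calponin, had 10.0, 17.3, 9.6, 7.97 and 2.56 CPM, and Myocd, the coactivator of smooth muscle genes, had 0.0807, 1.57, 7.92, 2.74 and 2.09 CPM. Neither passed (adjusted p = 0.0568 and 0.0186). Without N4_5-23 the 5 rises became 3. The change of Acta2 was above that of the other lines (6.66 ± 1.07 (SE), adjusted p = 0.00102), where it lay at 1.31 to 39.5 CPM.

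Of the endothelial genes 5 of 14, and of the primitive blood genes 7 of 12, were highest on day 7. Kdr, the VEGF receptor of mesodermal progenitors and endothelium, had 0.323, 39.6, 53.8, 29.4 and 15.3 CPM and passed the first step (adjusted p = 0.00448). Tek had 1.33, 0.824, 16.2, 34.4 and 53.5 CPM and was the 1 gene past the step from day 3 to 5 (log2 change 4.29 ± 0.39 (SE), adjusted p = 0.000744). Tie1, its co-receptor, had 0.121, 0.124, 10.6, 12.5 and 0.522 CPM, and Sox18 had 0.605, 0.124, 3.35, 3.47 and 0.157 CPM. Both were highest on days 5 and 7 and low again on day 14. Cdh5, the endothelial cadherin, had another order. It had 0.686, 1.24, 11.7, 20.2 and 95.1 CPM and rose (adjusted p = 0.000733), as did Kdr, Tek and the adhesion gene Esam (2.14, 0.824, 4.23, 5.48 and 13.1 CPM). Cldn5, the tight junction gene of endothelium, had 1.78, 0.659, 0.838, 3.98 and 0.0522 CPM and fell, with the last step passed (adjusted p = 0.00531). Of the 14 endothelial genes 4 rose and 3, Cldn5, Eng and Etv2, fell, and without WT_1-4 the falls became 1. Eng, a TGF-beta co-receptor that pluripotent cells also make, had 26.8, 5.98, 10.9, 5.44 and 2.14 CPM. Pecam1 had 15.1, 13.5, 14.8, 13.1 and 20.6 CPM, with no call. Embryonic globins were highest on day 7. Hbb-bh1 had 0, 0.165, 9.01, 29.7 and 0.261 CPM, Hba-x 0, 0.0824, 1.34, 10.5 and 0.0522 CPM and Hbb-y 0, 0, 0.251, 11 and 0 CPM. On day 14 they were at or under 0.261 CPM. Globin genes are close copies, and reads may be split among them. Among the 12 primitive blood genes only Gata2, a factor of blood progenitors, endothelium and trophoblast, rose (0.404, 3.42, 10.6, 17.8 and 30.0 CPM, adjusted p = 0.000831), beside 8.45% of all genes tested. Gata1, the erythroid factor, was at most 6.59 CPM, and Klf1 at most 0.557.

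Some trophoblast genes were higher from day 3 on and others only on day 14. Of 10 genes 6 rose and 1, Eomes, fell. Prl3d1, placental lactogen of giant cells, was 0 on days 0, 3, 5 and 7 and 135 CPM on day 14, at least 1116-fold higher (adjusted p = 0.00056). Tpbpa, a marker of spongiotrophoblast, had 0, 0, 0, 0.257 and 74.2 CPM, at least 613-fold higher (adjusted p = 0.00109). Prl3d1 belongs to a cluster with near-identical copies, and its split among them is uncertain. Like Ctsj, these genes rest on the day 14 library alone. Other risers were higher from day 3 on. Cdx2, a factor of trophectoderm and posterior mesoderm, had 0.121, 5.48, 17.5, 15.1 and 5.64 CPM, Gata3 0.525, 9.52, 26.4, 14.8 and 16.7 CPM and the keratin Krt7 1.9, 36.3, 56.5, 80.5 and 84.6 CPM. Elf5, a factor of trophoblast stem cells, had 0.0807, 0.288, 0.168, 0.257 and 3.29 CPM. Without N4_5-8 the 6 rises became 3. The test against the other lines says little for Prl3d1 and Tpbpa, since these lines lay at 0 to 0.0379 CPM and 0 to 1.36 CPM.

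Neural genes did not come up as a group. Of 18 genes, 17 were tested, 4 fell and 2 rose, beside 6.07% and 8.45% of all genes tested. The summed level went from 188.0 to 57.36 CPM, against 594 to 1431 CPM in the other lines. Sox1, the first marker of neuroectoderm, had 11.1, 2.35, 1.47, 1.76 and 0.209 CPM and fell (adjusted p = 3.15e-05), and Foxd3, which serves both pluripotent and neural crest cells, had 26.5, 3.54, 0.964, 1.8 and 0.418 CPM. Stmn2, a tubulin-binding protein of neurons, had 71.3, 83.5, 29.7, 26 and 8.4 CPM and fell, and it made up most of the list's level in the other lines (337 to 1241 CPM). Neurod1 had 4.64, 0.288, 0.293, 0.257 and 0.0522 CPM. The 2 rises were small in level: Tfap2a, of neural crest and surface ectoderm, had 0.323, 0.453, 3.06, 3.43 and 3.13 CPM and Zic1 0.161, 0.206, 0.335, 1.03 and 3.76 CPM. Without N4_5-23, 1 of the 2 was left. Pax6 was at most 1.93 CPM, and Neurog1 was at 0 in all 5 libraries. Of 10 germ cell genes, 8 were tested and 2 fell, the RNA helicase Ddx4 (17.6, 5.77, 1.34, 1.2 and 0.522 CPM) and the meiotic gene Sycp3 (15.7, 3.46, 0.88, 0.642 and 0.0522 CPM), and the number was 1 without N4_5-8 and 0 without N4_5-23. Of 9 macrophage genes only Csf1r, a receptor that trophoblast also makes, rose (0.0807, 0.865, 5.62, 9.08 and 35.9 CPM, adjusted p = 0.00759), beside 8.45% of all genes tested. It did not pass without N4_5-8 or without N4_5-23. The defining markers Ptprc and Adgre1 were 0 on days 0, 3 and 5 and at most 1.15 CPM on day 14. The list summed to 17.35 to 107.8 CPM in WT_20d and 3.594 to 61.96 CPM in the other lines.

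All 18 cell cycle genes were highest on day 0. Their median difference from day 0 was -0.42, -1.0, -1.0 and -1.12, which was a smaller drop on day 14 than in the other lines (-2.25 to -1.77). Only 3 fell by the test, the replication genes Mcm7 (608, 422, 225, 245 and 144 CPM, adjusted p = 0.00103) and Pcna (459, 298, 179, 217 and 101 CPM) and the cyclin gene Ccne1 (119, 64.9, 34.6, 36.4 and 19.1 CPM). Of the mitotic genes Plk1 had 163, 154, 157, 109 and 150.3 CPM and Ccna2 222, 194, 162, 139 and 211 CPM. For the cell cycle list 3 genes, Plk1, Ccna2 and Aurkb, had a change above that of the other lines (adjusted p = 0.00267, 0.00503 and 0.00496), beside 4.76% of all genes. These counts depended on the other lines. The falls were 10 without WT_1-4, 1 without N4_5-8 and 0 without N4_5-23, and the 3 differences became 1, 2 and 0. Among 10 genes of cell cycle arrest and the p53 pathway 6 rose and Trp53 itself fell (280.0, 192, 176, 136 and 66.4 CPM, adjusted p = 0.00208). Cdkn1c, an imprinted inhibitor of mesoderm and placenta, had 9.0, 23.4, 136, 160.3 and 210.3 CPM (adjusted p = 1.93e-05). Cdkn1a (p21) had 74.6, 96.3, 125, 106 and 213 CPM and Cdkn2a 2.22, 5.77, 9.85, 8.78 and 13.8 CPM, the latter against 100.1 to 319.5 CPM in the other lines. Without N4_5-23 the 6 rises became 2.

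In the IGF axis both the ligand and its clearance receptor rose. Igf2, an imprinted growth factor of fetal tissues, had 14.2, 497, 2493, 4539.7 and 3573 CPM and rose (log2 change 7.97 ± 1.28 (SE), adjusted p = 0.000628). Day 3 was 35 times day 0, and the level on day 7 was 319.6 times that of day 0. H19, the noncoding RNA next to it that is imprinted the opposite way, had 119, 1679, 3789, 5837 and 4193 CPM, which had the same order of days as Igf2 but did not pass (adjusted p = 0.0269). Igf2r, which takes up IGF2, had 136, 249, 912, 977 and 917 CPM and rose (adjusted p = 0.00176), whereas the signaling receptors Igf1r (61.4, 83.7, 120.2, 102 and 57.6 CPM) and Insr (48.4, 59, 109, 91.1 and 129 CPM) did not pass. Of the binding proteins Igfbp4 (10.8, 50.8, 146, 153 and 118 CPM), Igfbp5 (2.1, 12, 157, 281 and 136 CPM), Igfbp7 (0.363, 1.11, 2.68, 3.64 and 28 CPM) and the liver and decidua type Igfbp1 (0, 0.0412, 0.251, 4.97 and 25.6 CPM) rose. Igfbp2 had 389, 818, 1043, 873 and 386 CPM and Igfbp3 40.8, 165, 39.4, 45.5 and 40.6 CPM, both with no call in WT_20d and a change below that of the other lines (adjusted p = 0.000958 and 0.00138). In all, 6 of 16 genes rose and none fell. Of the changes, 6 were above and 2 below those of the other lines (4.76% and 3.83% of all genes), with Igf2 above (log2 difference in change 6.69 ± 1.31 (SE), adjusted p = 0.00348). Without N4_5-8 these were 2 and 0, and without N4_5-23 they were 2 and 2. Igf2 lay at 1.35 to 54.5 CPM in the other lines.

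Of 14 genes for NADPH oxidases and their subunits 9 were tested and 0 passed in edgeR for day 14 against day 0, with 2 at an unadjusted p under 0.05 and 0 calls in DESeq2 and in limma-voom. Nox4 was highest on day 7 at 8.69 CPM, 3.37 times day 0, and back at 2.92 CPM on day 14 (adjusted p = 0.917). A test of day 14 against day 0 cannot show a peak between these days. For the course, 0 genes of the list passed in edgeR, with 1 at an unadjusted p under 0.05 and 1 call each in DESeq2 and limma-voom. Cyba, the p22phox subunit that Nox4 needs, had 20.7, 43.5, 75.4, 66.6 and 27.5 CPM, and the other catalytic genes Nox1, Nox3, Cybb, Duox1 and Duox2 stayed at or under 0.835 CPM. Of 21 HoxA and HoxB genes 20 were tested and 3 rose, beside 8.45% of all genes tested. These were Hoxa9 (0.0807, 0.783, 2.6, 2.91 and 1.1 CPM), Hoxa10 (0.605, 1.03, 1.55, 3.04 and 4.49 CPM) and Hoxb4 (0.404, 1.11, 5.16, 3.9 and 6.47 CPM), and without N4_5-23 the number was 0. The list summed to at most 36.13 CPM, on day 5. Among 21 germ layer markers that the study used for PCR, which overlap the lists above and were chosen by the study, 9 rose and 5 fell. Of 12 stress and dissociation genes 6 rose and none fell, among them Ddit3, a factor of the unfolded protein response (6.86, 13.9, 21.1, 16.7 and 103 CPM, adjusted p = 0.000149), and Atf3 (4.04, 14.7, 26.5, 32.6 and 76.7 CPM). The list's median change was 2.17 in WT_20d and 0.95 to 1.98 in the other lines, and no member's change differed from theirs in edgeR (0 of 12, with 6 at an unadjusted p under 0.05 and 2 and 0 calls in DESeq2 and limma-voom). Without WT_1-4 there were 2 such calls. The rises were 3 without N4_5-8 or without N4_5-23. The stress genes rose over the same interval as the basement membrane and trophoblast genes, and their part in those results was not tested.

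The course of WT_20d was also compared with that of the other lines gene by gene. Whether the course as a whole differed was tested with 4 terms, and 931 genes passed (4.54%), beside 98 without N4_5-8 and 49 without N4_5-23. The change from day 0 to 14 differed for 1763 genes, with 977 above the other lines (4.76%) and 786 below (3.83%). With upper quartile scaling the split was 724 above and 933 below. Without N4_5-8 the total was 861 and without N4_5-23 it was 466. Of the 2980 genes that rose or fell in WT_20d, 1058 also differed from the other lines in that change. For 967 of the genes tested all 15 other libraries had at most 3 counts, and there the difference test has little to work with. Afp is close to such a case. Its difference in change was 4.78 ± 3.70 (SE) with adjusted p = 0.436 although it lay at 0 to 1.31 CPM in the other lines. The value was 9.11 without WT_1-4 and 2.37 without N4_5-23, with no call, while limma-voom gave 7.08 and an adjusted p of 0.00822. On the log2(CPM + 1) scale, the 10 protein-coding genes with the largest differences among those called were Col3a1, Col1a1, Col1a2, Postn, Nid1, Col4a2, Lefty1, Lefty2, Dlk1 and Drp2, a dystrophin-related gene with 2.54, 4.24, 10.2, 15.9 and 133 CPM. Of these 10, 8 had a change above the other lines, led on that scale by matrix genes. Lefty1 (-8.61 ± 1.10 (SE), adjusted p = 0.000244) and Lefty2 (-11.06 ± 1.49 (SE), adjusted p = 0.000349) had a change below them. These values are edgeR's fitted differences, which rank genes in another order, with Lum at 14.08 and Hand2 at 12.53. Lefty1 and Lefty2 lay at 0 to 0.661 CPM and 0 to 3.13 CPM in those lines, so WT_20d lost transcripts that were near 0 in the other lines from day 0 on. The call for Lefty1 was lost without N4_5-8 and with WT_1-4 alone as the comparison, as was that for Nanog with WT_1-4 alone (-7.04 ± 0.93 (SE) and adjusted p = 0.000313 against all 3 lines).

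**Figure D5:**
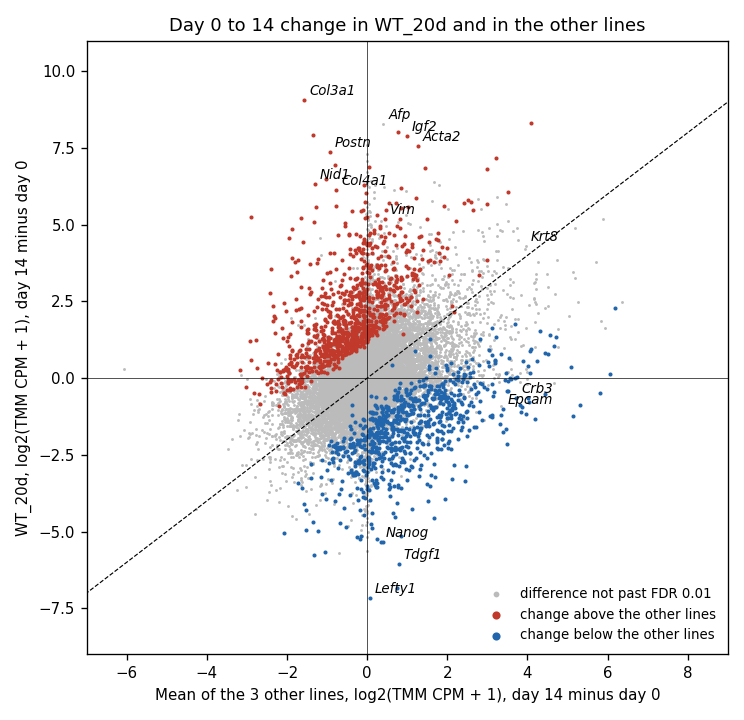
Change from day 0 to day 14 on log2(TMM CPM + 1) in WT_20d against the mean of the 3 other lines, 1 point for each of 20524 genes tested, with the dashed line at equal change. The 977 genes in red and 786 in blue are those whose change was above or below that of the other lines at FDR under 0.01, and the matrix genes Col3a1, Postn, Nid1 and Col4a1 lie between -1.57 and -0.77 on the horizontal axis and between 6.12 and 9.08 on the vertical one.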

How the data were processed

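RNA of 20 embryoid body libraries (4 clonal lines, 5 days) was sequenced from a stranded mRNA kit. Per the submitters' processing notes the authors used bcl2fastq, STAR 2.6.0c and RSEM 1.3.1 on mm10 (GRCm38); the strand setting of the counting is not given in the sources used here. The deposited values are estimated counts (expected counts) per gene, not normalized, with decimals in 9.921% of values, and they were rounded to whole numbers here. Library totals, 20294935 to 27707994 counts, set the precision, and intervals and floors cover counting error only.

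Of 55573 genes in the table, 55480 matched GENCODE vM21, which gave symbols and coordinates. After edgeR's expression filter 20524 genes were tested with edgeR 4.0.16 (R 4.3.3) on TMM factors, in 1 quasi-likelihood fit with a line term, common day effects for the 3 other lines and separate day effects for WT_20d. With 1 library for each line and day, the labels do not say that days came from separate cultures. The p-values measure the line-by-day spread of the 3 other lines. It holds technical spread and any true difference in course between those clones and genotypes, which cannot be told apart here. Contrasts were the course, day 14 against day 0, steps between neighboring days and the differences from the other lines, at FDR under 0.01. Alternatives were other scalings, no filter, DESeq2 1.42.0, limma-voom (limma 3.58.1), FDR under 0.05, no line term, each other line left out and WT_1-4 alone. The fit was also run on simulated counts with flat courses, apart from 200 genes changed on day 14 of WT_20d. Those counts held no true differences in course between the other lines, so the run does not show how the test behaves with them.

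Named genes outside the lists were the 10 protein-coding genes with the largest rises, falls and differences from the other lines among those called, and 5 each with the largest peak above days 0 and 14 on days 3, 5 and 7, with no test asked. The members and lists were chosen with earlier results of these data known. Promoters came from RefSeq windows on GRCm38.p6, where 27025 genes have one.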

Additional observations from a re-analysis of the deposited data

Results flagged for a closer look

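The change from day 0 to day 14 in WT_20d differed from that of the other 3 lines for 1763 genes, and the course for 931, by edgeR's test of the difference itself. The genes named above that passed are given here with the change of WT_20d minus that of the other lines, on the log2 scale. Of the interstitial matrix and fibroblast genes it was 12.12 for Col3a1, 10.09 for Col1a1, 8.53 for Col1a2, 10.09 for Postn, 14.08 for Lum, 6.01 for Dcn, 2.73 for Pdgfra and 4.84 for Vim. Of the basement membrane genes it was 6.96 for Col4a1, 8.11 for Col4a2, 7.44 for Lama1, 4.05 for Lamb1, 3.95 for Lamc1, 7.62 for Nid1, 5.92 for Thbd and 3.81 for Tinagl1. In heart and smooth muscle genes it was 6.75 for Hand1, 12.53 for Hand2, 5.33 for Mef2c, 4.55 for Ryr2, 5.71 for Tnnc1, 6.66 for Acta2, 9.66 for Actg2 and 1.23 for Tpm1. For Dlk1, Drp2 and Tinagl1, which are in none of the lists, it was 7.24, 8.93 and 3.81. For transition factors, vessel, blood and neural genes it was 5.99 for Snai1, 1.58 for Zeb1, 6.15 for Zeb2, 4.50 for Cdh2, 5.40 for Tek, 5.68 for Gata2, 3.38 for Tfap2a and 6.09 for Zic1. For endoderm, IGF axis and Hox genes it was 12.77 for Apoa2, 6.61 for Apom, 6.69 for Igf2, 2.69 for Igf2r, 5.22 for Igfbp5, 6.78 for Igfbp7, 3.93 for Hoxa9, 3.21 for Hoxa10 and 3.34 for Hoxb4. For cell cycle genes, an inhibitor of the cycle and Klf4 it was 2.40 for Plk1, 1.88 for Ccna2, 1.90 for Aurkb, 4.11 for Cdkn1c and 3.37 for Klf4.

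The change lay below that of the other lines in pluripotency and Nodal pathway genes, at -7.04 for Nanog, -4.71 for Pou5f1, -7.59 for Tdgf1, -5.19 for Utf1, -4.84 for Fgf4, -5.22 for Gdf3, -7.88 for Lin28a, -8.61 for Lefty1, -11.06 for Lefty2, -8.77 for Otx2, -2.78 for Dnmt3a and -4.57 for Eomes. It also lay below in epithelial, germ cell, neural and other genes, at -4.60 for Epcam, -5.67 for Crb3, -3.24 for Cdh1, -5.65 for Cldn5, -3.29 for Eng, -7.72 for Ddx4, -8.87 for Sycp3, -4.80 for Sox1, -2.40 for Stmn2, -7.39 for Cnn1, -4.79 for Igfbp2, -3.67 for Igfbp3, -5.49 for Zic5, -6.92 for Zfp988 and -6.28 for Pdzd4. Actg2, Apoa2, Hand2 and Lum had 0 counts on day 0 of WT_20d, so their fitted values depend on the prior count and are no bounds. Each value also holds the change of the other lines and is not the size of a loss in WT_20d. Lin28a, Cnn1, Igfbp2, Igfbp3, Cdh1, Epcam and Crb3 had no call in WT_20d itself. For Lefty2 the log2 change of WT_20d itself was -8.20, and the other lines lay at 0 to 3.13 CPM. No cause of these differences was tested, and WT_20d is 1 clone.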

How the results depend on the processing

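The libraries of a line come from the same clone, so the main fit pairs them by a line term. With no replicate block (no line term) the calls fell from 1747 to 173 for the course, from 2980 to 724 for day 14 against day 0, from 128 to 5, 1 to 0 and 32 to 0 for the steps from day 0 to 3, 3 to 5 and 7 to 14, from 931 to 40 for the difference in course and from 1763 to 245 for the difference in the day 0 to 14 change. In the same order, leaving out 1 of the other lines gave 435 to 2045, 1302 to 3534, 12 to 183, 0 to 0, 0 to 32, 49 to 666 and 466 to 1710 calls, the lowest without N4_5-23 in each but the steps from day 3 to 5 and 7 to 14, where without N4_5-8 the count was also 0. DESeq2 gave 4054 for the course, 479, 88, 14 and 553 for the 4 steps, 2915 for the difference in course and 3040 for that in the change. Limma-voom gave 247, 20, 8 and 323 for the steps. With no filter the course had 2731, the steps 313, 25, 7 and 184 and the difference in course 1615. FDR under 0.05 gave 3772, 5479, 330, 14, 289, 2263 and 3586, and median-of-ratios factors gave 3 for the step from day 3 to 5. WT_1-4 alone as the comparison gave 504 for the difference in course. With a pseudocount of 0.25 the counts past 4-fold were 702, 298, 128 and 814 for the steps and 3189 for day 0 to 14, with 5 they were 122, 29, 11, 150 and 1008, and past 2-fold 1871, 1041, 417, 2387 and 6248. Upper quartile scaling kept the number of differing changes at 1657 but with 43.7% above the other lines in place of 55.4%. The cause of these shifts was not tested. No gene called for day 14 against day 0 or for the difference in that change was called in the opposite direction under another scaling, no filter, another tool, no line term or with a line left out. Of the 21 genes named for the size of a rise or fall, markers included, 14 lost the day 14 call without the line term and 1, Afp, in DESeq2. Of the 14 genes named for a difference from the other lines, markers included, 11 lost that call without the line term (Col3a1, Col1a1, Postn and Nid1 among them), 3 with WT_1-4 alone and 1 without N4_5-8. Precision within WT_20d is limited by 1 library a day, and genes at or under 3 counts, up to 0.157 CPM, cannot be told from 0.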
